A study of Homo sapiens with 9 samples.

Results

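Aminoacyl-tRNA synthetases were followed in HEK293T cells and in a pair of clones derived from them. A list of 37 gene symbols was matched to the gene identifiers of the count files, and all 37 were found among the 60683 genes counted. They comprised 19 genes for cytosolic enzymes, 16 for mitochondrial enzymes and 2 for the scaffold proteins AIMP1 and AIMP2. The list does not hold every human enzyme of the family. All 37 passed the filter on low counts in each comparison.

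HEK293T is an established line of human embryonic kidney cells that carries the SV40 large T antigen. Parental cells carried no integrand. Clone 37 and clone 15 each carried, integrated by the piggyBac transposon, ATG-(CAG)60-Myc-NLuc, in which 60 CAG units precede a Myc tag and NanoLuc, and ATG-(CAG)0-Myc-FLuc, which has 0 CAG units ahead of the tag and firefly luciferase. Per the labels, both integrands were expressed at a high level in clone 37 and at a low level in clone 15. All 3 lines grew in DMEM with fetal bovine serum, and each was sequenced as 3 libraries of total RNA depleted of ribosomal RNA. Each level was represented by a single clone sorted from 1 cell, so the level of expression and any other property of a clone cannot be told apart. Clone 15 was read at 100 bp and the other lines at 75 bp, so clone 15 and read length cannot be told apart either. The labels do not say that replicates were separate cultures, so the p-values measure only the spread between libraries, which may be technical. In bulk RNA, fewer cells that express a gene and less RNA of it per cell cannot be told apart.

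Synthetases join each amino acid to its transfer RNA, which the ribosome then uses to read the messenger RNA. The cytosol and the mitochondrion mostly use separate enzymes, all encoded in the nucleus. GARS1 and KARS1 are exceptions, since each supplies both compartments. EPRS1, IARS1, KARS1, LARS1, MARS1, QARS1 and RARS1 sit with AIMP1 and AIMP2 in the multi-synthetase complex. When amino acids run short, uncharged transfer RNA activates the kinase GCN2, which leads to more ATF4 protein. ATF4 is a transcription factor that is known to raise many cytosolic synthetase genes through C/EBP-ATF response elements. Genes usually described as its targets are AARS1, CARS1, EPRS1, GARS1, IARS1, LARS1, MARS1, NARS1, SARS1, TARS1, WARS1 and YARS1, called the 12 ATF4-described enzymes here. FARSA, FARSB, HARS1, KARS1, QARS1, RARS1 and VARS1 are the 7 other cytosolic enzymes.

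Gene counts summed to between 10334090 and 38093340 per library, and all clone 15 libraries were deeper than the rest. Parental replicate 2 stood apart: its counts differed from those of replicates 1 and 3 with a chi-square per degree of freedom of 11.45 and 11.57, against 1.991 between those replicates. The clone 15 pairs lay between 4.528 and 9.974, and the clone 37 pairs between 1.769 and 1.931. All 7 listed HEK293T markers were detected in every library, and UMOD, AQP2, SLC12A1 and CD3E had 0 counts in all 9. The summed level of those 7 markers was 1299 to 1586 CPM (counts scaled to library size) in parental cells, 793 to 861 CPM in clone 37 and 4031 to 4177 CPM in clone 15. NEFL and NEFM, both neurofilament genes, carried that difference, and the other 5 markers summed to 612 to 698, 596 to 665 and 639 to 659 CPM. The summed level of the 3 fibroblast markers was 33.0 to 35.5 CPM in parental cells, 18.4 to 20.8 CPM in clone 37 and 54.1 to 166 CPM in clone 15. Within clone 15, COL1A2 reached 56.8 CPM in replicate 3 against 5.59 and 12.2 CPM in the other replicates. Library composition also moved with the lines. Multimapping pairs made up 11.9% to 14.0% of all pairs in parental cells, 10.4% to 11.7% in clone 37 and 4.59% to 5.98% in clone 15. Pairs that matched no gene on the counted strand made up 33.7% to 34.6% in clone 15 and 25.7% to 29.9% in clone 37, and in parental cells 19.2% in replicate 2 against 26.4% and 28.8% in the other replicates. The part of these markers and shares in the results below was not tested. Where a count of called genes in a comparison, group or list moves without parental replicate 2 or without clone 15 replicate 3, that is also given below. Counts of genes called in both clones or in 1 clone alone are given for all libraries only.

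In parental cells most cytosolic enzymes were more abundant than most mitochondrial enzymes. Levels of different genes are compared as CPM per kilobase of the longest annotated transcript. The median was 81.5 CPM per kilobase for the 19 cytosolic enzymes, 28.1 for the 2 scaffold proteins and 13.3 for the 16 mitochondrial enzymes. Per kilobase of joined exons these medians were 49.0, 20.5 and 9.67 CPM. IARS1, the isoleucine enzyme, stood first at 218 ± 9.57 CPM per kilobase (SD, n = 3), followed by the serine enzyme SARS1 at 164 ± 6.16. GARS1, EPRS1, AARS1, LARS1 and YARS1 came next, at 126 to 147 CPM per kilobase. All 7 are ATF4-described enzymes. The order depends on the length used: per kilobase of all exons of a gene joined, 6 of the 7 highest places are held by ATF4-described enzymes, IARS2 takes place 6, SARS1 place 5 and YARS1 place 10. Per kilobase of the longest transcript, IARS2, the mitochondrial isoleucine enzyme, ranked 9 at 90.9 ± 6.16 CPM per kilobase and was the highest of the mitochondrial set. The lowest were FARS2 at 3.12 ± 0.460, SARS2 at 2.16 ± 0.321 and VARS2 at 0.674 ± 0.162 CPM per kilobase. Among the cytosolic enzymes HARS1 and CARS1 were lowest, at 20.8 and 20.3 CPM per kilobase. They ranked 24 and 26, under the mitochondrial TARS2, AARS2 and RARS2, and 30 and 27 per kilobase of joined exons. Of 36 neighbouring pairs in this order, 18 had overlapping libraries, GARS1 with EPRS1 and LARS1 with YARS1 among them, so their order is not resolved. SARS2 and VARS2 levels are uncertain: 71.6% of the 75-base words of the longest SARS2 transcript also occur in the read-through gene AC011455.2, and 29.8% of those of VARS2 in the overlapping gene GTF2H4, and reads shared by overlapping genes are not counted for either.

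**Figure D1:**
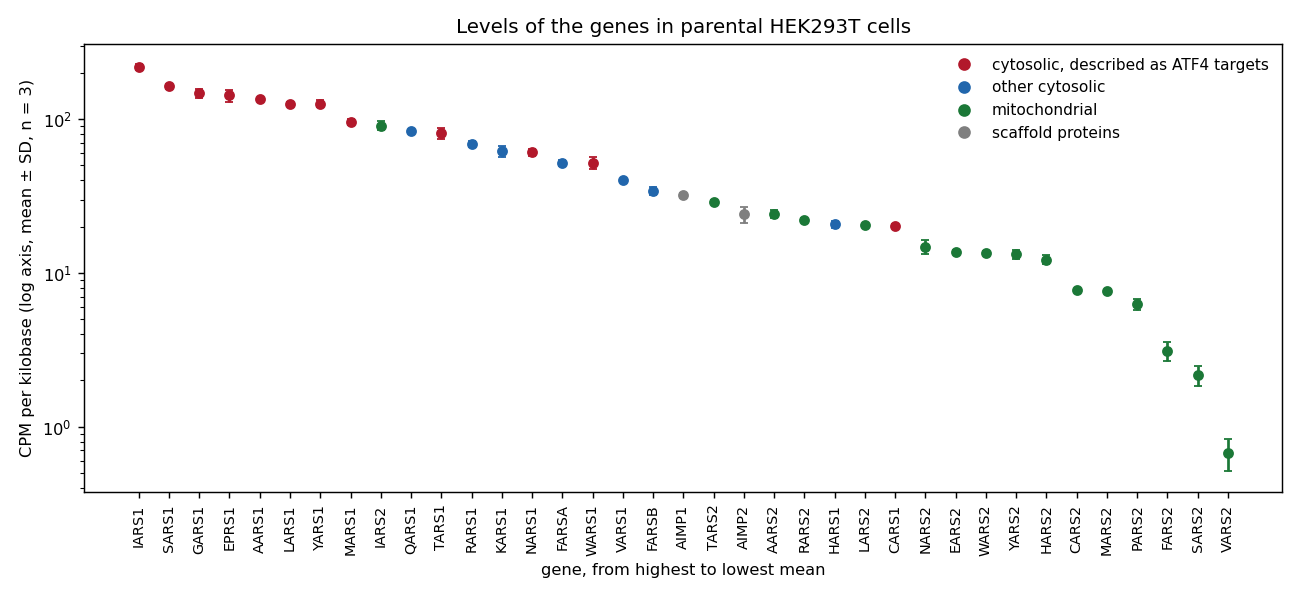
Each point is the mean of the 3 parental libraries for 1 gene, in CPM per kilobase of the longest transcript on a log axis, with bars of 1 SD; genes run from highest to lowest, and colours give the 4 groups. The points fall from 218 for IARS1 to 0.674 for VARS2, with ATF4-described enzymes in the 7 highest places and mitochondrial enzymes in the 11 lowest; per kilobase of joined exons they held 6 of those 7 places and 9 of those 11.

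The promoters are shown because ATF4 acts through such an element and the 12 ATF4-described enzymes are set apart below. Windows of 300 bases, from 250 before to 50 after the start of transcription, were taken from RefSeq on GRCh38.p14 and were matched for 32 of the 37 genes. They were searched on both strands for TGATGNAA, the C/EBP-ATF core, whose reverse complement is TTNCATCA. A match was found for 8 of the 32 genes, or 25.0%, against 1217 of 27305 genes with a window, or 4.46%. Among the ATF4-described enzymes 7 of 10 had one, among the other cytosolic enzymes 0 of 6, among the mitochondrial enzymes 1 of 14 and among the scaffold proteins 0 of 2. Of the ATF4-described enzymes, EPRS1, SARS1 and WARS1 had a window without a match, and LARS1 and YARS1 had no window. The lines below give 30 bases around each match, 5′ to 3′ on the strand of the gene, with the match in capitals. AARS1, CARS1, IARS1, NARS1 and YARS2 lie on the minus strand and the others on the plus strand.
AARS1: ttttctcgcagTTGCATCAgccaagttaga
CARS1: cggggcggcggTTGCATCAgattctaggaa
GARS1: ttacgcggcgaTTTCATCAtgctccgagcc
IARS1: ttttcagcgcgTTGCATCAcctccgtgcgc
MARS1: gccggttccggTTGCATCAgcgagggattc
NARS1: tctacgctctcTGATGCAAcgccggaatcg
TARS1: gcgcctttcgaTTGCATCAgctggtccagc
YARS2: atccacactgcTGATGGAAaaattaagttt
In the order shown, the windows lie at chr16:70289675-70289704, chr11:3057407-3057436, chr7:30594834-30594863, chr9:92293692-92293721, chr12:57488053-57488082, chr18:57621804-57621833, chr5:33440956-33440985 and chr12:32756076-32756105. The match begins 187 bases before the start in AARS1, 2 bases before the start in CARS1, 33 bases before the start in GARS1, 13 bases before the start in IARS1, 4 bases before the start in MARS1, 14 bases after the start in NARS1, 2 bases after the start in TARS1 and 197 bases before the start in YARS2. In 6 of the 8 the 8 letters are the same, TTGCATCA or its reverse complement TGATGCAA. GARS1 has TTTCATCA and YARS2, the mitochondrial tyrosine enzyme, has TGATGGAA. A match describes letters and does not show that a factor binds there.

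In clone 37, 27 of the 37 genes, or 73.0%, differed from parental cells, 12 higher and 15 lower. A gene is said to differ, rise or fall where its adjusted p in edgeR's quasi-likelihood test was under 0.05. Over all 16501 genes tested this held for 54.0%, with 26.7% of all genes higher and 27.3% lower. The median log2 fold change of the 37 genes was -0.10, beside 0.02 over all genes tested. The groups of libraries did not overlap for 33 of the 37, and for 61.7% of all genes tested. The cytosolic enzymes made most of the calls, with 5 higher and 12 lower of 19 and a median of -0.31. Of the 16 mitochondrial enzymes 5 were higher and 3 lower, with a median of 0.16, and both scaffold proteins were higher. Without parental replicate 2 the 37 genes gave 28 calls, 13 of them higher, since the mitochondrial RARS2 passed at 0.16 and made the mitochondrial increases 6. The share called over all genes was then 59.4%.

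All 10 calls among the 12 ATF4-described enzymes in clone 37 were decreases, with a median log2 fold change of -0.46 over the 12. Their summed level was 5064 ± 227 CPM in parental cells and 3687 ± 59.4 CPM in clone 37 (SD, n = 3). The remaining 2, NARS1 and TARS1, had log2 fold changes of -0.13 and -0.10 and did not pass. A promoter match was held by both and by AARS1, CARS1, GARS1, IARS1 and MARS1, which fell. EPRS1, SARS1 and WARS1 fell without a match in their windows. With edgeR at an unadjusted p under 0.05, and with DESeq2, 0 of the 12 rose. Over 16 alternative settings, which include leaving out parental replicate 2, between 10 and 12 fell and 0 rose.

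GARS1, the glycine enzyme, changed most (ENSG00000106105, chromosome 7, 30594681 to 30634033). It stood at 361, 409 and 392 CPM in parental replicates 1 to 3 and at 182, 172 and 194 CPM in clone 37. Every clone 37 library lay far below every parental one, with a fitted log2 change of -1.11 (SE 0.069, adjusted p 5.4e-10). SARS1 (chromosome 1, 109213918 to 109238169) had 298, 321 and 305 CPM in parental cells and 155, 159 and 148 CPM in clone 37. The groups were far apart, with a fitted log2 change of -1.03 (SE 0.059, adjusted p 2.08e-10). WARS1, the tryptophan enzyme (chromosome 14, 100333788 to 100376805), stood at 144, 168 and 169 CPM in parental cells and 87.4, 80.9 and 81.4 CPM in clone 37. Its libraries did not overlap, with a fitted log2 change of -0.97 (SE 0.069, adjusted p 3.14e-09). YARS1, the tyrosine enzyme (chromosome 1, 32775237 to 32818153), went from 385, 426 and 414 CPM to 239.8, 230.3 and 237 CPM, again without overlap, with a fitted log2 change of -0.82 (SE 0.062, adjusted p 6.89e-09). CARS1, the cysteine enzyme, fell from 116 ± 3.35 to 71.2 ± 0.241 CPM (SD, n = 3). The falls of EPRS1, AARS1, MARS1, LARS1 and IARS1 were smaller, with log2 fold changes of -0.49, -0.43, -0.41, -0.35 and -0.31.

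The other cytosolic enzymes went mostly the opposite way in clone 37. Of these 7, 5 were higher and 2 lower, with a median log2 fold change of 0.51, and their summed level was 1003 ± 35.5 CPM in parental cells and 1334 ± 30.6 CPM in clone 37 (SD, n = 3). KARS1, the lysine enzyme (chromosome 16, 75627474 to 75648643), stood at 141, 164 and 146 CPM in parental cells and at 263, 254 and 264 CPM in clone 37. Every clone 37 library was above every parental library, with a fitted log2 change of 0.77 (SE 0.066, adjusted p 3.45e-08). Per kilobase of the longest transcript KARS1 moved from rank 13 of 37 in parental cells to rank 2 in clone 37, and per kilobase of joined exons from rank 15 to rank 6. VARS1, the valine enzyme, rose from 172 ± 4.81 to 298 ± 17.4 CPM (SD, n = 3). RARS1, the arginine enzyme, FARSA, the alpha subunit of the phenylalanine enzyme, and HARS1, the histidine enzyme, had log2 fold changes of 0.56, 0.51 and 0.32. QARS1, the glutamine enzyme, fell by 0.25 on the log2 scale. FARSB, the beta subunit that pairs with FARSA, fell by 0.18 on that scale, although its libraries overlapped with the parental ones. FARSB lost its call without clone 37 replicate 1, at -0.18, and without clone 37 replicate 2, at -0.14, and also with DESeq2 and with no filter on low counts. Against its chromosome neighbours it was called higher, at 0.16.

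**Figure D2:**
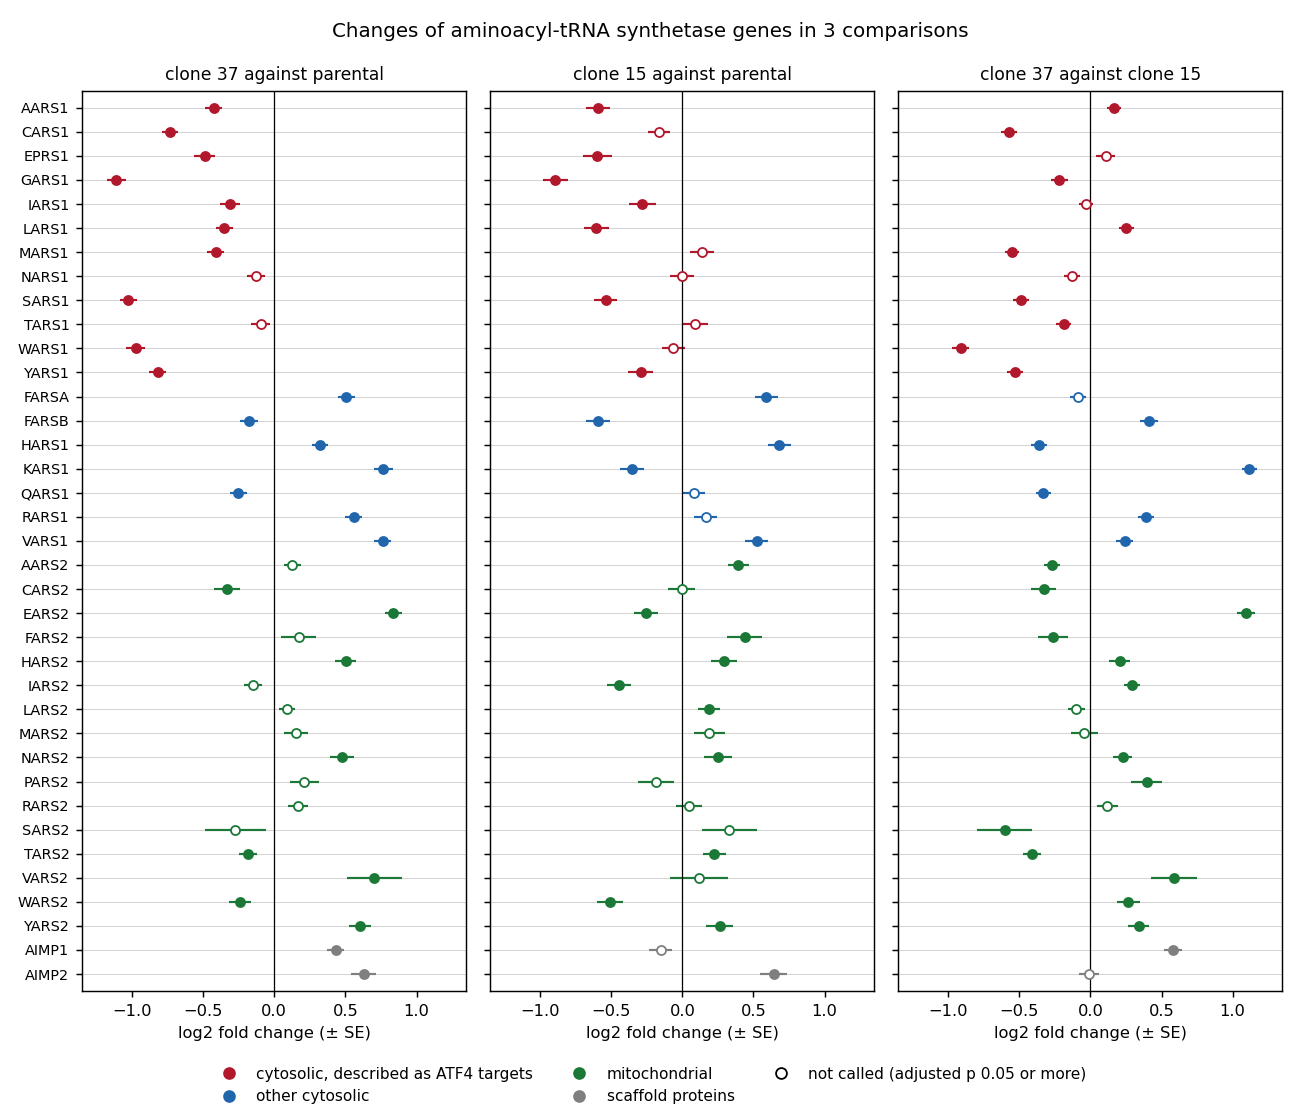
Points give the log2 fold change of each of the 37 genes in each of the 3 comparisons, with bars of 1 SE; filled points passed an adjusted p of 0.05 and colours give the group. In clone 37 the ATF4-described enzymes all lie left of 0, from -1.11 for GARS1 to -0.10 for TARS1, and KARS1 and EARS2 lie on opposite sides of 0 in the 2 clones.

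Among mitochondrial enzymes, the largest changes in clone 37 were increases. EARS2, the glutamate enzyme (chromosome 16, 23522014 to 23557731), stood at 53.7, 55.5 and 54.1 CPM in parental cells and at 99.3, 102 and 95.7 CPM in clone 37. The groups were well apart, with a fitted log2 change of 0.84 (SE 0.06, adjusted p 3.39e-09). YARS2 (chromosome 12, 32727490 to 32755902) had 27.7, 30.0 and 26.4 CPM in parental cells and 45.4, 42.6 and 42.3 CPM in clone 37, with a fitted log2 change of 0.60 (SE 0.08, adjusted p 5.63e-06). VARS2, the valine enzyme (chromosome 6, 30908242 to 30926459), rested on few reads, 41 to 61 counts in parental libraries and 68 to 79 in clone 37. It had 4.63, 2.95 and 4.67 CPM and 6.21, 7.55 and 6.40 CPM, groups that do not overlap, with a fitted log2 change of 0.70 (SE 0.19, adjusted p 0.005). HARS2 and NARS2, the histidine and asparagine enzymes, rose with log2 fold changes of 0.50 and 0.48. CARS2, WARS2 and TARS2 fell by 0.33, 0.24 and 0.18 on the log2 scale. WARS2 and TARS2 lost their calls without clone 37 replicate 2, at -0.19 and -0.14, and TARS2 also without clone 37 replicate 3, at -0.20. Both lost them with DESeq2 too, and TARS2 with no filter on low counts. AARS2, FARS2, IARS2, LARS2, MARS2, PARS2, RARS2 and SARS2 did not pass, with log2 fold changes between -0.27 for SARS2 and 0.21 for PARS2.

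Members of the multi-synthetase complex did not move together in clone 37. All 9 differed from parental cells: KARS1, RARS1, AIMP1 and AIMP2 were higher, and EPRS1, IARS1, LARS1, MARS1 and QARS1 lower. AIMP1 (chromosome 4, 106315544 to 106349226) stood at 85.9, 79.8 and 82.9 CPM in parental cells and at 114, 109.9 and 117 CPM in clone 37, without overlap, with a fitted log2 change of 0.43 (SE 0.058, adjusted p 7.02e-06). AIMP2 (chromosome 7, 6009245 to 6023834) stood at 25.8, 30.1 and 32.8 CPM in parental cells and 49.3, 43.4 and 47.3 CPM in clone 37, also without overlap, with a fitted log2 change of 0.63 (SE 0.088, adjusted p 1.16e-05). EPRS1, which charges both glutamate and proline (chromosome 1, 219968601 to 220046658), had 656, 779 and 709 CPM in parental cells and 523, 504 and 531 CPM in clone 37. Its highest parental value came from replicate 2, and the fitted log2 change of -0.49 (SE 0.074, adjusted p 2.64e-05) was found with all 3 replicates. Without parental replicate 2 its log2 fold change was -0.42.

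In clone 15, 23 of the 37 genes, or 62.2%, differed from parental cells, 11 higher and 12 lower. Over all 17703 genes tested 51.4% differed, 25.1% of all genes being higher and 26.2% lower. The count was 26 without parental replicate 2, 14 of them higher, and it was 19 without parental replicate 1 or 3. The shares over all genes without parental replicates 1, 2 and 3 were 42.7%, 48.0% and 44.9%. It was again 23 without clone 15 replicate 3, where LARS2 did not pass and MARS2 passed as higher, at 0.29, and where 46.2% of all genes were called. The median log2 fold change of the 37 was 0.05, beside 0.02 over all genes tested, and the groups of libraries did not overlap for 27, and for 59.5% of all genes. The ATF4-described enzymes gave 7 decreases among 12, with 5 that did not pass, with a median of -0.29, and summed to 4054 ± 121 CPM (SD, n = 3). Without parental replicate 2 the decreases were still 7, and MARS1 and TARS1 passed as increases, with log2 fold changes of 0.17 and 0.18. The other cytosolic enzymes gave 3 increases and 2 decreases among 7, and 4 increases without parental replicate 2, where RARS1 passed at 0.23. The mitochondrial enzymes gave 7 increases and 3 decreases among 16, and without parental replicate 1 or 3 the increases were 3. The comparisons of the 2 clones with parental cells share the parental libraries, so their values are given side by side and are not independent.

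GARS1 changed most in clone 15 as well, with 216, 201 and 223 CPM against the parental values above. No library overlapped with parental ones, with a fitted log2 change of -0.89 (SE 0.088, adjusted p 6.5e-09). LARS1, the leucine enzyme (chromosome 5, 146113038 to 146182660), stood at 595, 594 and 615 CPM in parental cells, 475, 489 and 476 CPM in clone 37 and 419, 393 and 399 CPM in clone 15. The 3 groups did not overlap, with a fitted log2 change of -0.60 (SE 0.086, adjusted p 2.03e-06) for clone 15 against parental. EPRS1 had 498, 427 and 524 CPM in clone 15, all under the parental libraries, with a fitted log2 change of -0.60 (SE 0.10, adjusted p 2.64e-05). HARS1 (chromosome 5, 140673904 to 140691862) rose: it stood at 69.8, 70.8 and 76.9 CPM in parental cells, 91.4, 93.7 and 91.7 CPM in clone 37 and 117, 115 and 124 CPM in clone 15. The 3 groups were separate, with a fitted log2 change of 0.68 (SE 0.079, adjusted p 9.52e-08) for clone 15 and of 0.32 (SE 0.059, adjusted p 0.000186) for clone 37. AARS1, SARS1, YARS1 and IARS1 also fell, with log2 fold changes of -0.59, -0.54, -0.29 and -0.28. IARS1 lost its call without clone 15 replicate 2, at -0.23, and with GC and length trends removed, at -0.15. CARS1, MARS1, NARS1, TARS1 and WARS1 did not pass and had values from -0.17 for CARS1 to 0.14 for MARS1.

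The beta and alpha subunits of the phenylalanine enzyme went apart in clone 15. FARSB had 107, 122 and 116 CPM in parental cells and 83.5, 73.3 and 77.2 CPM in clone 15, while FARSA had 104, 112 and 104 CPM and 158, 179 and 157 CPM. Neither pair of groups overlapped, and the log2 fold changes were -0.59 for FARSB and 0.59 for FARSA. VARS1 rose, with a log2 fold change of 0.52, and KARS1 fell by 0.35 on the log2 scale. QARS1 and RARS1 did not pass, at 0.08 and 0.16. Of the scaffold proteins, AIMP2 rose to 45.8, 47.3 and 48.9 CPM, above every parental library, with a fitted log2 change of 0.64 (SE 0.097, adjusted p 4.63e-06). AIMP1 had 79.8, 70.9 and 77.2 CPM, overlapping with parental cells, and did not pass at -0.15.

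Mitochondrial enzymes changed in clone 15 by up to 0.51 on the log2 scale. WARS2, the tryptophan enzyme (chromosome 1, 119031216 to 119140671), stood at 38.0, 38.7 and 36.9 CPM in parental cells, 35.1, 30.8 and 32.1 CPM in clone 37 and 27.6, 26.7 and 27.4 CPM in clone 15. The groups did not overlap, with a fitted log2 change of -0.51 (SE 0.092, adjusted p 5.46e-05) for clone 15. IARS2 (chromosome 1, 220094102 to 220148041) had 314, 349 and 308 CPM in parental cells and 247, 237 and 246 CPM in clone 15, without overlap, with a fitted log2 change of -0.44 (SE 0.086, adjusted p 0.000123). FARS2, the phenylalanine enzyme (chromosome 6, 5261044 to 5829192), had 12.0, 10.4 and 13.9 CPM in parental cells and 15.7, 17.8 and 16.7 CPM in clone 15, again apart, with a fitted log2 change of 0.44 (SE 0.12, adjusted p 0.0049). AARS2, HARS2, YARS2, NARS2, TARS2 and LARS2 also rose, with log2 fold changes from 0.19 for LARS2 to 0.39 for AARS2. Of these, NARS2, TARS2, YARS2 and LARS2 lost their calls without parental replicate 1, at 0.18, 0.19, 0.22 and 0.15, and without parental replicate 3, at 0.18, 0.18, 0.19 and 0.16. Without clone 15 replicate 1, LARS2 and YARS2 lost theirs at 0.18 and 0.25, and LARS2 did so without clone 15 replicate 3 at 0.20. All 4 also lost their calls with unstranded counts, with DESeq2 and with no low-count filter. LARS2, TARS2 and YARS2 lost theirs with GC and length trends removed. EARS2 fell, with 47.0, 45.0 and 47.9 CPM, by 0.26 on the log2 scale. CARS2, MARS2, PARS2, RARS2, SARS2 and VARS2 did not pass.

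**Figure D3:**
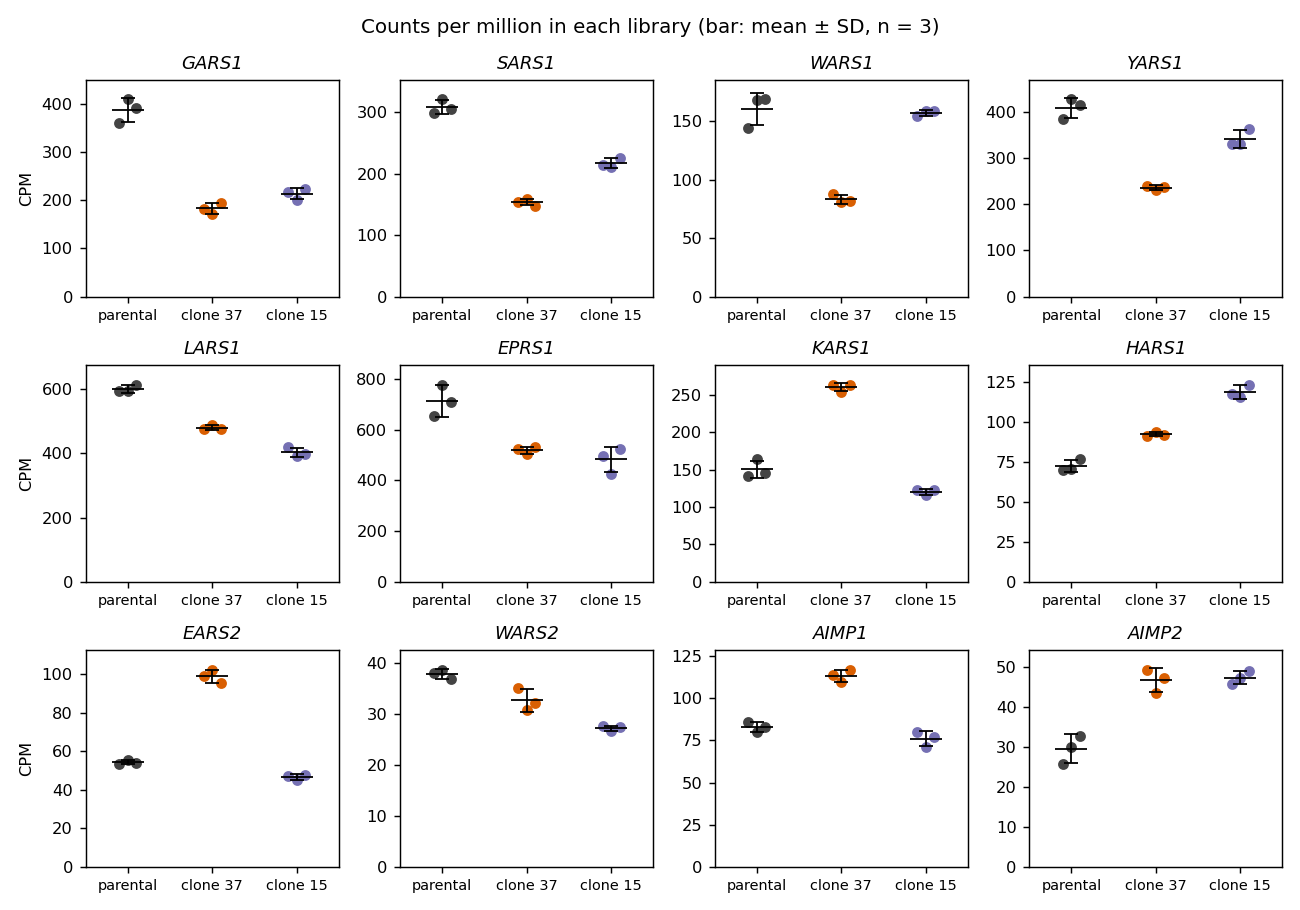
Points are the CPM of single libraries for 12 genes in the 3 lines, each panel with its own axis from 0, and bars give the mean ± SD of 3. GARS1 and SARS1 are lower in both clones, KARS1 and EARS2 are above parental cells in clone 37 and below them in clone 15, and WARS1 is lowest in clone 37, at 80.9 to 87.4 CPM.

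Side by side, FARSA, HARS1, VARS1, HARS2, NARS2, YARS2 and AIMP2, 7 of the 37 genes, were higher than parental cells in both clones. Another 9 were lower in both: AARS1, EPRS1, FARSB, GARS1, IARS1, LARS1, SARS1, YARS1 and WARS2. The call was in opposite directions for KARS1, EARS2 and TARS2, though against chromosome neighbours KARS1 and EARS2 lost it in clone 15 and TARS2 in clone 37. Without parental replicate 2, MARS1 was also called in opposite directions, higher in clone 15 at 0.17 and lower in clone 37. RARS1 was then called higher in both clones. Over all 16360 genes that entered both tests, 11.8% were called higher in both, 14.6% lower in both and 6.55% in opposite directions. Because both comparisons use the same parental libraries, these counts describe the genes and are not a test. The call was made in clone 37 and not in clone 15 for CARS1, MARS1, QARS1, RARS1, WARS1, CARS2, VARS2 and AIMP1. These were 8 of the 37 genes, beside 20.9% of all genes that entered both tests. All 8 also differed between the clones, as did 79.6% of all genes called in clone 37 alone. The call was made in clone 15 and not in clone 37 for AARS2, FARS2, IARS2 and LARS2, or 4 of the 37, beside 19.4% of all genes. Of these LARS2 did not pass between the clones, where 83.8% of all genes called in clone 15 alone did. Genes called in 1 clone alone are already chosen to differ, so this is a description. NARS1, TARS1, MARS2, PARS2, RARS2 and SARS2 passed in neither comparison with parental cells.

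HARS1 and HARS2 are neighbours on chromosome 5, transcribed in opposite directions from overlapping starts, and both rose in both clones. HARS2 (chromosome 5, 140691426 to 140699318) had 31.0, 28.4 and 32.4 CPM in parental cells, 43.3, 43.0 and 45.7 CPM in clone 37 and 38.7, 36.5 and 39.6 CPM in clone 15. The 3 groups did not overlap, with a fitted log2 change of 0.50 (SE 0.075, adjusted p 2.39e-05) for clone 37 and of 0.29 (SE 0.091, adjusted p 0.00897) for clone 15. HARS2 was highest in clone 37 and HARS1 in clone 15. The counts use strand, and with unstranded counts HARS2 lost its call in clone 15. HARS2 also overlaps ZMAT2 on its own strand, so part of its reads may not be counted.

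Clone 37 was also compared with clone 15 directly, and 29 of the 37 genes differed, 15 higher and 14 lower in clone 37. Over all 17712 genes tested 57.7% differed, with 28.7% of all genes higher and 29.0% lower. Without clone 15 replicate 3 the count was 30, since EPRS1 passed as higher in clone 37 at 0.16, and 56.9% of all genes were called. The median log2 fold change of the 37 was -0.03, beside -0.0015 over all genes tested, and the groups did not overlap for 29, and for 63.5% of all genes. Of the 12 ATF4-described enzymes 2 were higher and 7 lower in clone 37, with a median of -0.20. AARS1 and LARS1 were the 2 that were higher. AARS1, at 0.16, lost its call in the fit of all 9 libraries and was called lower, at -0.25, against its chromosome neighbours. Of the other cytosolic enzymes 4 were higher and 2 lower, and of the mitochondrial enzymes 8 were higher and 5 lower.

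KARS1 differed most between the clones, at 263, 254 and 264 CPM in clone 37 and 122, 116 and 123 CPM in clone 15. No library came near the other group, with a fitted log2 change of 1.12 (SE 0.055, adjusted p 5.79e-16). WARS1 was lower in clone 37, at the values above against 154, 159 and 158 CPM in clone 15, with a fitted log2 change of -0.91 (SE 0.057, adjusted p 1.1e-13). In clone 15 WARS1 overlapped with parental cells. CARS1 (chromosome 11, 3000922 to 3057613) stood at 114, 115 and 120.3 CPM in parental cells, 71.4, 70.9 and 71.2 CPM in clone 37 and 104, 108 and 106 CPM in clone 15. Every clone 37 library was below the rest, with a fitted log2 change of -0.57 (SE 0.058, adjusted p 1.98e-09). MARS1, the methionine enzyme (chromosome 12, 57475445 to 57517569), stood at 329, 346 and 359 CPM in parental cells, 263, 255 and 273 CPM in clone 37 and 381, 394 and 389 CPM in clone 15. It was lowest in clone 37, with a fitted log2 change of -0.55 (SE 0.052, adjusted p 4.34e-10). MARS1 overlaps DDIT3 on the opposite strand, and its decrease was also called with unstranded counts.

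Among mitochondrial enzymes, EARS2, VARS2 and TARS2 led the differences between the clones. EARS2 was higher in clone 37, with a fitted log2 change of 1.09 (SE 0.062, adjusted p 1.56e-14). VARS2 had 4.02, 5.12 and 4.34 CPM in clone 15 and was higher in clone 37, with a fitted log2 change of 0.59 (SE 0.16, adjusted p 0.00288), a call that was lost when counts were thinned to the smallest library. TARS2, the threonine enzyme (chromosome 1, 150487364 to 150507609), stood at 78.4, 81.9 and 78.0 CPM in parental cells, 75.1, 68.0 and 70.4 CPM in clone 37 and 93.4, 98.1 and 93.2 CPM in clone 15. The groups did not overlap, with a fitted log2 change of -0.41 (SE 0.061, adjusted p 1.49e-06) between the clones. SARS2, the serine enzyme (chromosome 19, 38915266 to 38930896), had a larger fitted difference, but its groups overlapped. It stood at 3.47, 3.00 and 4.61 CPM in clone 37 and at 6.01, 4.55 and 6.49 CPM in clone 15, with a fitted log2 change of -0.60 (SE 0.19, adjusted p 0.00919). Single libraries decided some calls between the clones. Without clone 37 replicate 2, GARS1, FARS2 and SARS2 did not pass, at -0.16, -0.22 and -0.46. Without clone 37 replicate 3, FARS2, HARS2 and NARS2 did not, at -0.26, 0.16 and 0.19. WARS2 did not without clone 37 replicate 1, at 0.22, nor HARS2 without clone 15 replicate 2, at 0.15. FARS2 also lost its call with DESeq2, with GC and length trends removed, with thinned counts and with unstranded counts. SARS2 lost its call with thinned and with unstranded counts, and HARS2 and PARS2 lost theirs with thinned counts.

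Genes near a member on its chromosome sometimes moved the same way. For each gene, the 100 tested genes nearest to it were summarised by their median log2 fold change. KARS1 lies on the long arm of chromosome 16, and its neighbours had a median of 0.54 in clone 37 and -0.24 in clone 15, against 0.77 and -0.35 for KARS1 itself. EARS2, on the same chromosome, had neighbours at 0.25 and -0.35, against 0.84 and -0.26. GARS1 had neighbours at -0.42 and -0.43, smaller than its own -1.11 and -0.89. In clone 37 the neighbours of WARS1 and SARS1 were lower too, at -0.38 and -0.22, and those of WARS1 differed by -0.52 between the clones. AIMP2, also on chromosome 7, went against its neighbours, which had medians of -0.32 and -0.41 beside its own 0.63 and 0.64. For AARS1, CARS1 and IARS1 in clone 37 the neighbours were higher, at 0.27, 0.22 and 0.16, while the genes fell. Over the ATF4-described enzymes the neighbours' median was 0.04 in clone 37 and 0.06 in clone 15, against -0.46 and -0.29 for the genes. Over the other cytosolic enzymes it was 0.15 and 0.19, against 0.51 and 0.16 for the genes. Tested against neighbours, the median of those other cytosolic enzymes was 0.23 in clone 37 and 0.16 in clone 15. Tested against their neighbours in clone 37, KARS1 went from 0.77 to 0.23, FARSA from 0.51 to 0.20, GARS1 from -1.11 to -0.69 and WARS1 from -0.97 to -0.60, all still called. In clone 37, 4 of the 27 called changes became smaller by over 1.5 times and 3 became larger by over 1.5 times. In clone 15, 12 of 23 became smaller by that much, among them GARS1 at -0.46 and SARS1 at -0.23, and 3 larger. Between the clones 8 of 29 became smaller, among them KARS1 at 0.39, EARS2 at 0.48 and WARS1 at -0.39, and 4 larger. In these comparisons another 4, 1 and 1 called changes turned in sign. FARSB turned and was called higher in clone 37, CARS2, TARS2, VARS2 and WARS2 lost their calls there, and FARSB, KARS1, EARS2, HARS2, LARS2 and NARS2 lost theirs in clone 15. Between the clones CARS2, SARS2 and YARS2 did. The part of such regional shifts in the values of the genes was not tested further.

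**Figure D4:**
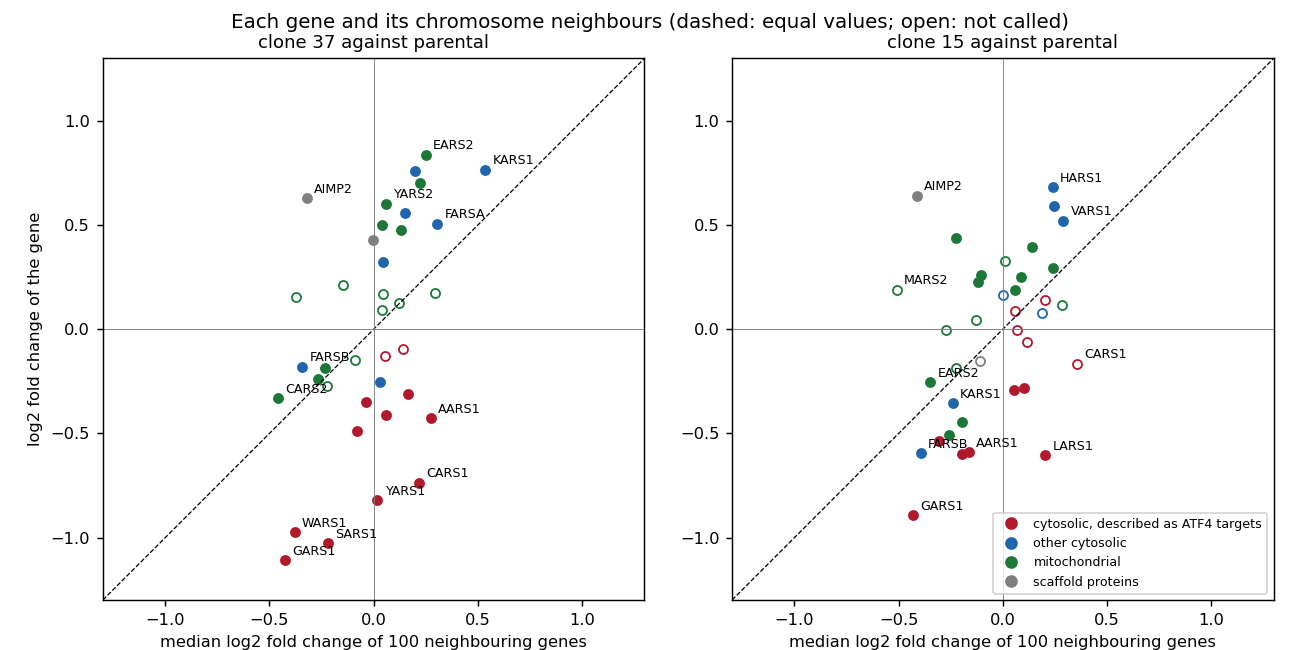
Each point is 1 of the 37 genes, with the median log2 fold change of its 100 neighbours on the horizontal axis and its own on the vertical axis; open points were not called and the dashed line marks equal values. KARS1 and EARS2 lie in the upper right in clone 37 and in the lower left in clone 15, whereas AIMP2 lies above 0 with neighbours below 0 in both.

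Other genes of the pathway were read from lists, and their counts stand beside the shares over all genes, which were 26.7% higher and 27.3% lower for clone 37 and 25.1% and 26.2% for clone 15. Of 24 genes of ATF4 and the amino acid response, other than synthetases, 22 (91.7%) were lower in clone 37, with a median log2 fold change of -0.98, and 21 (87.5%) were lower in clone 15, with a median of -0.67. The others did not pass. Without parental replicate 2, and likewise without clone 15 replicate 3, 20 were lower in clone 15. The largest falls were those of CHAC1 and DDIT4 in clone 37, at -2.96 and -2.58, and of DDIT4 and ALDH1L2 in clone 15, at -2.09 and -1.55. CHAC1 degrades glutathione, DDIT4 restrains mTOR complex signalling and ALDH1L2 is a mitochondrial folate enzyme. ATF4 itself had log2 fold changes of -0.57 in clone 37 and -0.25 in clone 15.

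Partners of charging, which edit, trim, bind or export transfer RNA or help to charge it, numbered 15. In clone 37, 9 (60.0%) were higher and 2 (13.3%) lower, with a median of 0.31, and without parental replicate 2 those higher were 8. In clone 15, 5 (33.3%) were higher and 3 lower, with a median of 0.08, shares near those of all genes. Without clone 15 replicate 3 these were 4 and 1, and without parental replicate 2 they were 5 and 2. AARSD1, which removes serine wrongly joined to alanine transfer RNA, had log2 fold changes of 1.07 and 0.88. EEF1E1, another scaffold protein of the complex, rose in clone 37 at 0.98. Of 39 genes for processing and modifying transfer RNA, 28 (71.8%) rose and 5 (12.8%) fell in clone 37, with a median of 0.42, while 24 (61.5%) rose and 4 (10.3%) fell in clone 15, with a median of 0.35. Without parental replicate 2 these were 30 and 6 in clone 37 and 25 and 3 in clone 15, and without clone 15 replicate 3 they were 22 and 3. POP1, a protein of RNase P, and DUS3L, a dihydrouridine synthase, had the largest changes in clone 37, at 1.24 and 1.01. RPP25, another protein of RNase P, and TRMT61A, a catalytic subunit of an adenosine methyltransferase, had those in clone 15, at 1.68 and 1.14.

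RNA polymerase III, which transcribes the transfer RNA genes, and its factors gave 14 increases (70.0%) and 5 decreases (25.0%) among 20 in clone 37, and 9 increases (45.0%) and 4 decreases in clone 15, or 5 decreases without parental replicate 2. Its subunit POLR3K had the largest change in clone 37, at 1.18, followed by POLR3GL at -0.97. POLR3GL and the TFIIIC subunit GTF3C3 had those in clone 15, at -1.06 and -0.95. Of 9 tested elongation factors, which bring charged transfer RNA to the ribosome or move it on, 2 (22.2%) were higher and 1 (11.1%) lower in clone 37, led by EEF1D at 0.37 and EEF1A2 at -0.33. In clone 15 only EEF1B2 (11.1%) passed, as lower, at -0.28. Of these lists, 6 of 20 ATF4 and amino acid response genes with a promoter window held TGATGNAA, or 30.0%, against 0 of 11 charging partners, 1 of 31 processing genes, 0 of 15 polymerase III genes and 0 of 8 elongation factors.

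**Figure D5:**
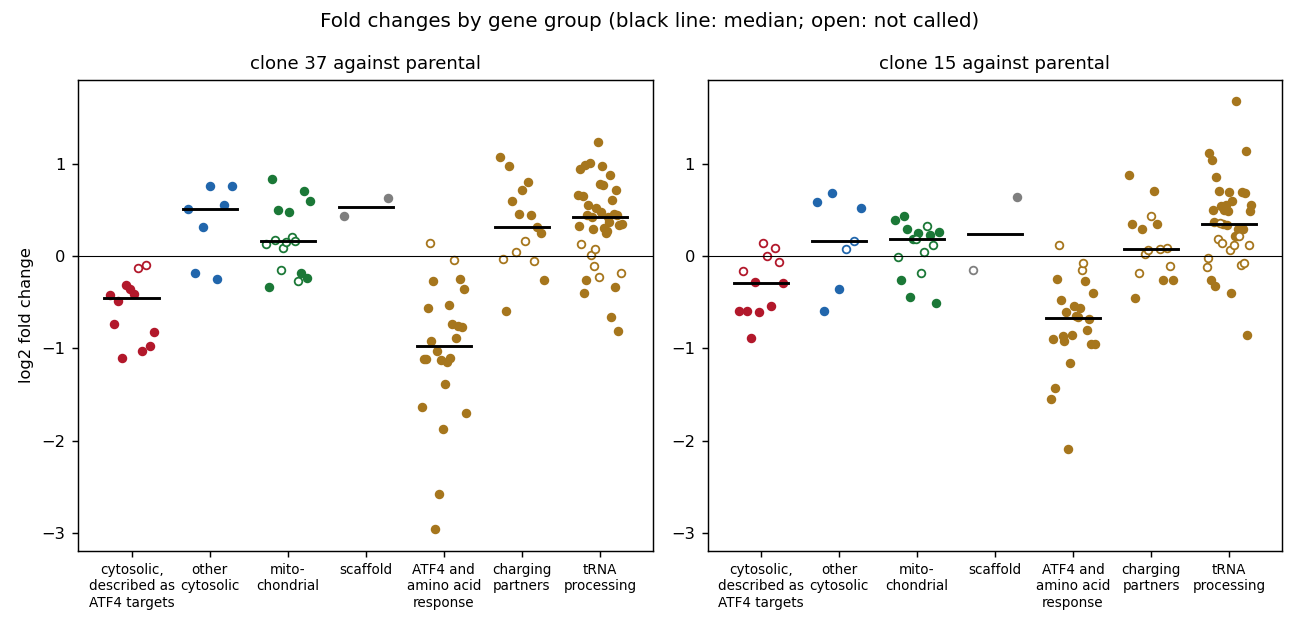
Points are log2 fold changes of single genes in 7 groups for each clone against parental cells, with open points for genes that were not called and a black line at the median. The medians of the ATF4-described enzymes (-0.46 and -0.29) and of the ATF4 and amino acid response list (-0.98 and -0.67) lie below 0, and those of the other cytosolic enzymes (0.51 and 0.16) above it.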

How the data were processed

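RNA of 9 HEK293T libraries (3 lines, 3 replicates each) was sequenced. Each deposited file lists raw counts for every gene, made by the authors with STAR 2.7.10a on hg38 per the submitters' processing notes, which also name FastQC 0.11.9. The annotation release is not given in the sources used here. Column 4, the transcript strand, held 92.6% to 94.0% of stranded counts and was used. Such counts leave out multimapping pairs (fewest in clone 15) and pairs that hit several genes. The 4 summary entries stayed out of library sizes.

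CPM values are counts scaled to the summed gene counts of a library. After filterByExpr and TMM scaling, genes entered edgeR 4.0.16's quasi-likelihood test (robust) in R 4.3.3, each comparison on its 6 libraries. P-values were adjusted by Benjamini-Hochberg over all genes tested, and the SE is the log2 fold change over the square root of F. The pipeline was tested on simulated data. Positions are from GENCODE 29 on GRCh38.

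Alternatives were DESeq2 1.42.0, RLE size factors, other filters, unstranded counts, all 9 libraries in 1 fit, a replicate block, thinning, removal of GC and length trends (loess span 0.3), a test against 100 chromosome neighbours, and leaving out each library. Counts by group under these settings, and counts of the pathway lists without parental replicate 2 or clone 15 replicate 3, were added after the data were seen. The genes and lists were chosen with earlier results of these data known. Every gene is named, and library values are given for the 4 cytosolic and 3 mitochondrial enzymes with the largest change in each comparison among those called with groups that do not overlap, and for 7 fixed by name; FARSA, FARSB and SARS2 were added after their values were seen. Promoter matches are shown for all 8 genes that have one, beyond a rule that took only those called in both clones. A result that the naming rule gave for the pathway lists is not reported here.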

Additional observations from a re-analysis of the deposited data

Results flagged for a closer look

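KARS1, EARS2 and TARS2 were called in opposite directions in the 2 clones relative to parental cells, which is what marked them. The direct comparison of the clones reuses the same 6 clone libraries, so for genes chosen this way it gives the size of the difference and is no separate test. KARS1 was higher in clone 37 than in clone 15 by a log2 fold change of 1.12, being above parental cells in clone 37 (0.77) and below them in clone 15 (-0.35). For EARS2 the difference between the clones was 1.09, with 0.84 in clone 37 and -0.26 in clone 15. TARS2 went the other way, at -0.41 between the clones, with -0.18 in clone 37 and 0.23 in clone 15. Several of these calls were lost under other settings. In clone 37 the TARS2 call was lost in 5 of 16 settings, and it became 0.051 against chromosome neighbours, and in clone 15 it was lost in 6 of 16. The clone 15 calls of KARS1 and EARS2 were each lost against neighbours, at -0.11 and 0.093. The 100 tested genes around KARS1 differed between the clones by a median of 0.73, those around EARS2 by 0.61 and those around TARS2 by -0.13.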

How the results depend on the processing

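Over 16 settings, 22 of the 27 calls made in clone 37 were kept in every one, as were 14 of 23 for clone 15 and 18 of 29 for the direct comparison of the clones. Of 1776 gene values under the alternatives, 1639 kept direction and side of the threshold. With direction kept, 67 lost and 35 gained a call. Another 35 changed sign, and some of these lost their call as well.

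Against chromosome neighbours, the median of the 37 genes moved to 0.051 in clone 37 and -0.082 between the clones. In clone 37, FARSB became 0.16, CARS2 0.13, FARS2 -0.12, TARS2 0.051 and WARS2 0.030. In clone 15, MARS1 became -0.061, QARS1 -0.11, CARS2 0.27, EARS2 0.093, PARS2 0.039 and VARS2 -0.17. Between the clones, AARS1 became -0.25 and RARS2 -0.024. With GC and length trends removed, NARS1 became 0.10, QARS1 -0.050 and AIMP1 0.15 in clone 15, FARSA 0.058 and AIMP2 0.11 between the clones, and the median between the clones 0.033. With thinned counts CARS2 became 0.048, and with the filter of 1 CPM in 3 libraries NARS1 became 0.0063 and CARS2 0.0057, all in clone 15. With unstranded counts RARS2 became -0.0040 in clone 15, which was also the median of the 37 genes there, and AIMP2 became 0.056 between the clones.

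In clone 15, 11 genes were called higher. This was 7 with DESeq2, 7 with no filter on low counts, 6 with unstranded counts and 7 without parental replicate 1 or without parental replicate 3. The mitochondrial increases there, 7 in the reported test, were 3 with DESeq2, 4 with GC and length trends removed, 3 with no filter, 2 with unstranded counts and 3 without parental replicate 1 or 3. With 1 library left out in turn, the increases of mitochondrial enzymes ranged from 3 to 8, and the median of the 37 genes in clone 15 from 0.00091 to 0.072. There NARS1 ranged from -0.062 to 0.066, CARS2 from -0.042 to 0.052, RARS2 from -0.0039 to 0.12 and VARS2 from -0.063 to 0.21. Between the clones MARS2 ranged from -0.14 to 0.054, EPRS1 from -0.0017 to 0.16 and AIMP2 from -0.044 to 0.049. Charging partners called lower in clone 15 went from 3 to 1 without clone 15 replicate 3. The cause was not tested for any of these.

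Deviations of libraries with the same replicate number correlated between -0.26 and 0.09, and those with different numbers between -0.19 and 0.19. With 3 libraries per group this cannot decide whether the numbers pair the samples. With the replicate number as a block, 27 genes were called for clone 37, 22 for clone 15, where LARS2 did not pass, and 30 for the clones against each other. VARS2 (41 to 153 counts a library) and SARS2 (31 to 229) are limited by depth.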
